A study of Mus musculus with 6 samples.

Results

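The genes described here are those that fold, inspect, translocate and degrade proteins in the endoplasmic reticulum (ER), together with the stress sensors that govern them. The members were chosen by gene symbol from a list of 34 genes of ER chaperones, ER-associated degradation (ERAD) and the ATF6 and XBP1 arms of the unfolded protein response. The rule uses symbols and no measured values, although the list was drawn up with earlier results of these data known. Of the 34 symbols, 33 had a row among the 21757 gene symbols (25001 loci) of the deposited tables, no symbol was repeated, and 32 reached 1 FPKM. FPKM are fragments per kilobase of exon, scaled to the fragments of the library, so that levels are per length and can be set side by side between genes. Derl3, a derlin of secretory cells, stayed between 0.0640 and 0.155 FPKM. Manf, a small ER stress protein, had no row of its own.

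RNA was sequenced from 427.1.86 cells, a mouse thymoma line, in 6 libraries with 1 library per condition. The 427 cells carried the empty pSUPER vector and received DMSO or 1 µM PMA, a phorbol ester that activates protein kinase C and induces shedding of the membrane protease epithin/PRSS14 (gene St14), for 2 h after 2 h without serum. Cells labelled SPPL2b knockdown (SP2bKD) received DMSO or PMA in the same way, and SPPL2b is the intramembrane protease studied as the enzyme that releases the epithin/PRSS14 intracellular domain (EICD). Further SP2bKD cells were transfected with a GFP vector alone, or with the GFP vector and a Flag-tagged construct of EICD (Flag-N55), and were sorted for GFP on the day after transfection. Serum withdrawal is not stated for the sorted cells. According to the labels the knockdown was by siRNA, and according to the methods it was by an shRNA in a stable single-cell clone, so that a difference between the lines may belong to 1 clone.

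With 1 library per condition there is no replicate error and no test, and each difference below describes 2 libraries. A gene was counted as higher or lower when it passed 1.5-fold, a log2 ratio of 0.58, and reached 1 FPKM in either library of the pair. Shares over all genes therefore take in genes of 1 to 10 FPKM, while all 32 measured members reached 10 FPKM. Shares at a minimum of 10 FPKM were not computed, and counts at that minimum are given for some comparisons. Ratios were taken after 0.01 FPKM was added to both values. In bulk RNA, fewer cells of a type and less RNA per cell cannot be told apart.

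In the deposited FPKM the row of the targeted gene went against its label. The methods state that clones were tested for SPPL2b mRNA by qPCR, which is not compared here. Sppl2b was at 9.90 FPKM in 427 cells with DMSO, 6.86 with PMA, 13.4 and 9.37 in the SP2bKD libraries with DMSO and PMA, 11.4 with GFP and 13.2 with GFP plus EICD. Thus no library labelled SPPL2b knockdown was below the 427 library of the same treatment, and every direction between the lines given here is one between libraries as labelled. The deposited row of Sppl2b begins at 80853006 on chromosome 10, before the annotated start of the gene at 80855275. Lsm7, which overlaps this row on the opposite strand, was at 69.5 FPKM in 427 cells and 33.6 FPKM in SP2bKD cells with DMSO (-1.05). With PMA it was at 74.3 and 60.8 FPKM (-0.29). The part of this overlap in the values of Sppl2b was not tested. St14 was at 69.6 FPKM in the GFP library and 614.5 FPKM in the GFP plus EICD library, where fragments of the introduced construct also count toward it. All 6 epithelial markers were present in each library, with a summed level of 6321 to 15017 FPKM, highest in the GFP library, and the thymic epithelial factor Foxn1 was at 6.37 to 15.2 FPKM. The largest of the 6 in each library was the row of Krt5 (3851 to 10705 FPKM). It is a newly assembled row from 101638928 to 101715551 on chromosome 15, and whether it also covers neighbouring genes was not tested. All 7 T cell markers were under 1 FPKM in each library, 4 of them at 0. All 4 fibroblast markers and 3 of 5 myeloid markers were also under 1 FPKM in each library. The other myeloid markers were Csf1r, at 2.37 to 7.35 FPKM, and Cd68, at 1.25 to 2.58 FPKM. The estimated depth was 26000000 to 30500000 fragments per library.

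Proteins enter the ER through the Sec61 channel and are folded there by the Hsp70 BiP (Hspa5), the Hsp90 GRP94 (Hsp90b1), the lectins calnexin and calreticulin, and the disulfide isomerases. Proteins that fail to fold are passed back to the cytosol by the ERAD machinery, in which Sel1l and the ligase Syvn1 (HRD1) form the core. When unfolded proteins accumulate, 3 sensors respond. ATF6 is cleaved in the Golgi to a transcription factor that drives chaperone genes, IRE1 (Ern1) splices Xbp1 mRNA so that it encodes an activator of ERAD and translocation genes, and PERK (Eif2ak3) phosphorylates the initiation factor eIF2, which favours translation of ATF4. Values of FPKM per gene do not resolve the splicing of Xbp1, the cleavage of ATF6 or any phosphorylation.

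The ER stress response element (ERSE), the letters CCAAT, 9 further bases and CCACG, is the site through which NF-Y and ATF6 act on chaperone genes. RefSeq promoter windows of GRCm38.p6, from 250 bases before to 50 bases after a transcript start, were at hand for 29 of the 34 members, Selk being matched as Selenok. Manf, Hyou1, Atf6, Derl1 and Sec61a1 were not matched. An ERSE in either orientation was found in 9 of the 29 members (31.0%). Over all genes, members included, it was found in 37 of 27025 genes, or in 39 of 32851 windows (0.119%). The 10 matches in these 9 members lay 26 to 212 bases before the start. They are shown because the ERSE was found in more members than any other element searched, although most members with a window lacked it. The list was drawn up to cover the ATF6 arm, so that matches among its members are not an independent finding. Capitals mark the match, and each sequence is written 5′ to 3′ on the strand of the gene. A match that begins with CGTGG reads as the element on the opposite strand.
Hspa5, chr2:34772020-34772048, plus strand: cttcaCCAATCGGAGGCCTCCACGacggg
Hsp90b1, chr10:86705633-86705661, minus strand: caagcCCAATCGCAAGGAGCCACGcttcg
Hsp90b1, chr10:86705528-86705556, minus strand: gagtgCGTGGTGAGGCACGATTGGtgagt
Calr, chr8:84847070-84847098, minus strand: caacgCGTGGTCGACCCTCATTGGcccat
Canx, chr11:50325795-50325823, minus strand: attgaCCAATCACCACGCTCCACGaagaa
Pdia6, chr12:17266486-17266514, plus strand: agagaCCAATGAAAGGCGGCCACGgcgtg
Creld2, chr15:88819515-88819543, plus strand: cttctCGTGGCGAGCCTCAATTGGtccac
Dnajc3, chr14:118937822-118937850, plus strand: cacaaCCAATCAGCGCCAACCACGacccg
Syvn1, chr19:6046527-6046555, plus strand: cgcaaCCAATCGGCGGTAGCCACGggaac
Derl3, chr10:75893237-75893265, plus strand: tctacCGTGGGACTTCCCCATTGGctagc

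The second form of the element, ERSE-II, has the letters ATTGG, 1 base and CCACG. It was found in Herpud1 and Dnajb11 and in 12 of 32851 windows (0.0365%). The UPRE, TGACGTGG, to which XBP1 binds, was found in Sec24d alone among the members and in 222 windows (0.676%). Its reverse strand holds CCACG, as does the ERSE. The C/EBP-ATF element TGATGNAA, through which ATF4 and its partners act, was found in Herpud1 alone among the members and in 1304 windows (3.97%). These sites are shown because Herpud1, the member that moved most, holds 2 kinds of them.
Herpud1 (ERSE-II), chr8:94386372-94386392, plus strand: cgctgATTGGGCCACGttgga
Herpud1 (C/EBP-ATF element), chr8:94386312-94386329, plus strand: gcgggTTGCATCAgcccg
Dnajb11 (ERSE-II), chr16:22857847-22857867, plus strand: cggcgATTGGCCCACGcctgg
Sec24d (UPRE), chr3:123267465-123267482, plus strand: gcgccTGACGTGGcacta

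The 250 bases before the start of Hspa5 and of Herpud1 are given in full, because Hspa5 (BiP) is the best known gene of the ERSE and Herpud1 moved most. Capitals mark the ERSE in Hspa5, and in Herpud1 first the C/EBP-ATF element on the opposite strand and then the ERSE-II. A match is a description of the letters and was not tested as a binding site.
Hspa5, chr2:34771840-34772089, plus strand: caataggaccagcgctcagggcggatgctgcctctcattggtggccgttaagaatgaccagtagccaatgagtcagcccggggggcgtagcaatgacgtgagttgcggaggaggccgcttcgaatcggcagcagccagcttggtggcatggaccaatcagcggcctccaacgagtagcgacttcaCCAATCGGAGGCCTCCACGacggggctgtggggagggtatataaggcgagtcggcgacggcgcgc
Herpud1, chr8:94386179-94386428, plus strand: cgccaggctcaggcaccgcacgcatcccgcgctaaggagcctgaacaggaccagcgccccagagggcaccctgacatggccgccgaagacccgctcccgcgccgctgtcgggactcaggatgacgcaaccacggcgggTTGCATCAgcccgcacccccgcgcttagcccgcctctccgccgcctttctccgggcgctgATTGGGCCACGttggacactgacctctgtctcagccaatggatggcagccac

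The ER genes were abundant, and their median spread over the libraries was slightly below that of all genes. Mean levels of the 32 measured members ran from 13.0 FPKM (Dnajb9, the J-domain protein ERdj4) to 510 FPKM (Hsp90b1). After Hsp90b1 the most abundant were Hspa5 at 426 FPKM, Calr at 351 FPKM, the disulfide isomerase Pdia3 at 307 FPKM and Canx at 277 FPKM. Of the sensors, Eif2ak3 at 14.0 FPKM and Atf6 at 15.9 FPKM were near the low end, and the merged row of Ern1 was at 27.7 FPKM. The ratio of the highest to the lowest library had a median of 1.53 over the members and was under 2 for 29 of 32. Over 10335 genes with a mean of 1 FPKM or more the median was 1.64, and 69.3% were under 2. Means of these genes reach down to 1 FPKM and those of the members only to 13.0 FPKM. Spread at equal level was not compared. The most even member was Derl1, an ERAD membrane protein, with a ratio of 1.12. The members at 2 or more were Herpud1 (4.97), Atf6 (2.72) and Hspa5 (2.08).

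The members had their extremes in the same few libraries. The GFP plus EICD library was the lowest of the 6 for 16 of 32 members, against 19.3% of 10335 genes. The SP2bKD library with DMSO was the highest for 16 of 32 members, against 25.5% of genes. It was the lowest for 0 of 32 members, against 12.3% of genes.

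**Figure D1:**
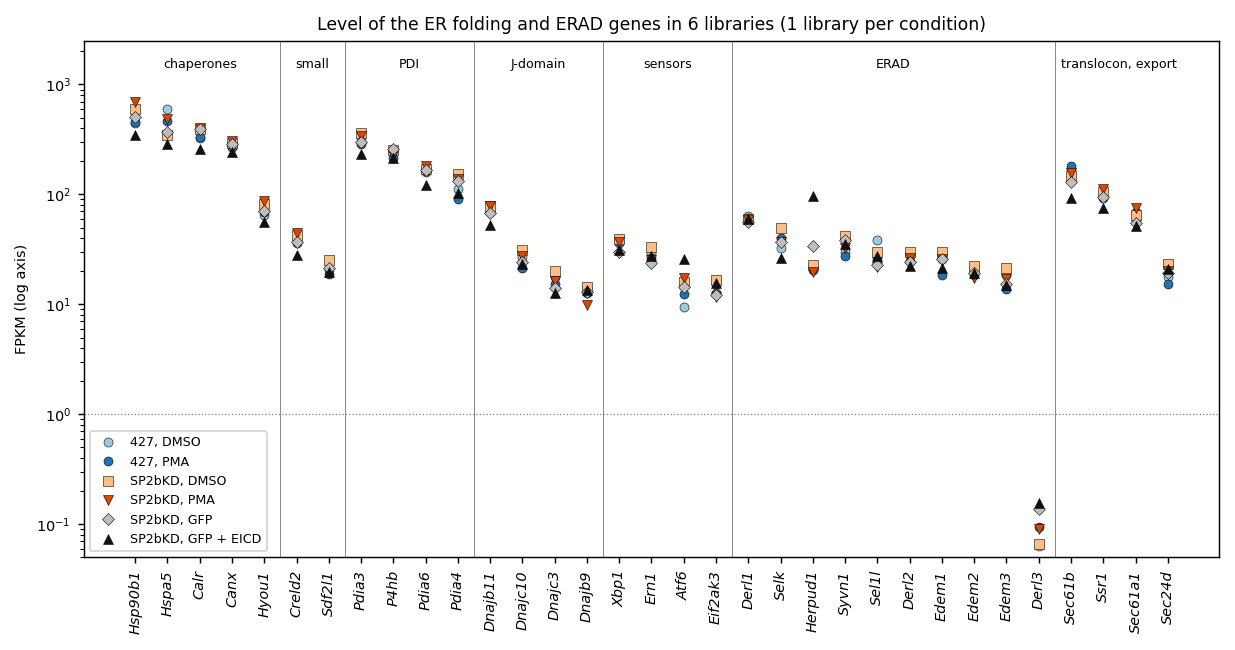
FPKM of the 33 members with a row (log axis) in each of the 6 libraries, grouped by role from left to right, where "small" stands for the small ER stress proteins. Each point is 1 library, the dotted line marks 1 FPKM, and Herpud1 in the GFP plus EICD library (97.7 FPKM) stands apart from its other 5 points (19.7 to 34.1 FPKM).

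The comparison of GFP plus EICD with GFP asks which transcripts differ when the free intracellular domain is supplied. Herpud1 and Atf6 rose and Calr fell, and the chaperones and disulfide isomerases were all below 0, with Calr alone among them past 1.5-fold. Of the 32 measured members 2 were higher and 1 was lower, against 10.2% of 10478 genes higher and 2.54% lower. At a minimum of 10 FPKM the members were again 2 and 1. The genes at that minimum were 463 higher and 158 lower instead of 1065 and 266, with a median of 0.025. Below 0 were 22 of 32 members and 41.9% of all genes. The median log2 ratio was -0.12 over the members and 0.066 over all genes.

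Herpud1, a membrane protein that helps assemble the ERAD complex, is known as a target of both ATF6 and ATF4. It was at 21.9 FPKM in 427 cells with DMSO, 20.5 with PMA, 22.7 in SP2bKD cells with DMSO, 19.7 with PMA, 34.1 with GFP and 97.7 with GFP plus EICD. The 4 unsorted libraries lay close together, and both sorted ones lay above them. The log2 ratio of GFP plus EICD to GFP was 1.52 (2.87-fold), the largest rise among the members.

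Atf6 was at 9.47, 12.6, 15.9, 17.5, 14.4 and 25.8 FPKM in the same order of libraries. The GFP plus EICD library was again the highest, and the log2 ratio to GFP was 0.84 (1.79-fold). The other sensors and Xbp1 were also above 0 without passing 1.5-fold, at 0.36 for Eif2ak3, 0.23 for Ern1 and 0.06 for Xbp1. Xbp1 stayed between 30.2 and 39.0 FPKM over the 6 libraries. The row of Ern1 runs from 106391113 to 106613423 on chromosome 11 and also spans Tex2, so that its value is that of a merged locus.

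Calr, the lectin chaperone calreticulin, was at 328 FPKM in 427 cells with DMSO, 336 with PMA, 395 in SP2bKD cells with DMSO, 399 with PMA, 390 with GFP and 259 with GFP plus EICD. The GFP plus EICD library was below the other 5, and the log2 ratio to GFP was -0.59, just past the threshold. Hsp90b1 was just inside it, at 511 FPKM with GFP and 347 FPKM with GFP plus EICD (-0.56). Hspa5 went from 368 FPKM with GFP to 289 FPKM with GFP plus EICD (-0.35). The other chaperones were Hyou1, an Hsp70-related chaperone, at -0.31 and Canx at -0.24. All 5 were below 0.

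The 4 disulfide isomerases gave -0.44 for Pdia6, -0.37 for Pdia4, -0.37 for Pdia3 and -0.29 for P4hb, none past 1.5-fold. Pdia3 and Pdia6 overlap antisense genes (Catsper2 and Atp6v1c2), and whether strand was used in counting is not given in the sources used here. Of the J-domain proteins that hand clients to BiP, Dnajb11 was at -0.37, Dnajc3 at -0.12, Dnajc10 at -0.06 and Dnajb9 at 0.06. The small ER stress proteins Creld2 and Sdf2l1 were at -0.40 and -0.12. The deposited row that covers Manf, 106838312 to 106891979 on chromosome 9, carries the name of Rbm15b, which lies inside that span, and it was at -0.43. These roles all had medians below 0.

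The ERAD genes other than Herpud1 lay around 0, from -0.49 for Selk, a selenoprotein of the ER membrane, to 0.27 for Sel1l. Syvn1 was at -0.11, Derl2 at -0.11 and Derl1 at 0.10. The mannosidase-like Edem proteins, which mark glycoproteins for degradation, were at -0.27 for Edem1, -0.04 for Edem3 and 0.01 for Edem2. Of the 9 measured ERAD members 5 were below 0 and 4 above it. The translocon and export genes were Sec61b at -0.48, Ssr1 at -0.33, Sec61a1 at -0.10 and the COPII coat gene Sec24d at 0.11. Derl3 is not counted, since its FPKM correspond to an estimated 2.3 to 5.4 fragments per library.

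**Figure D2:**
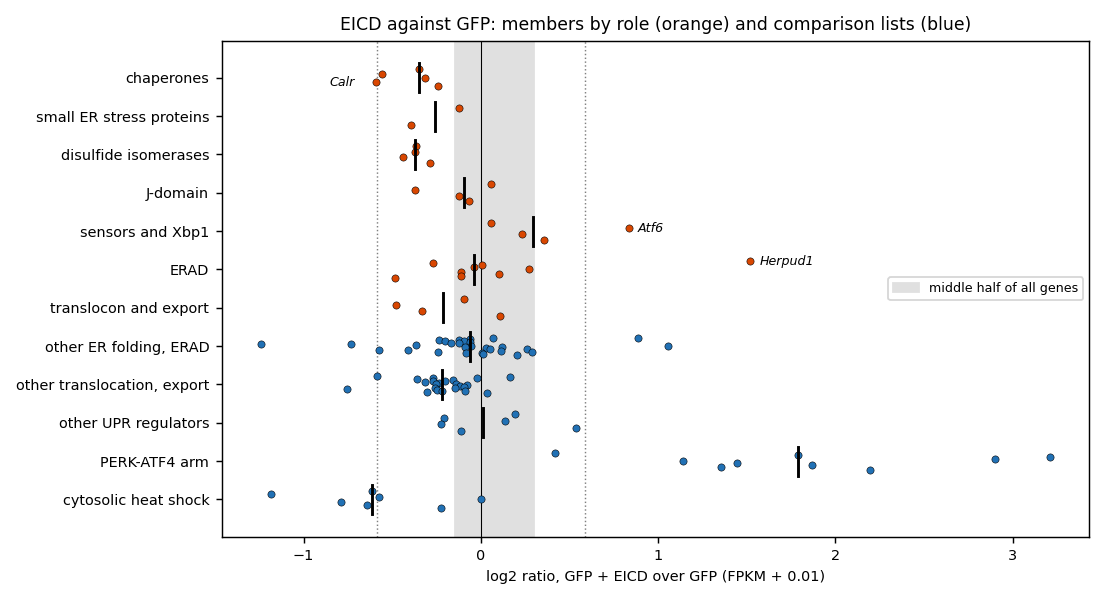
log2 ratio of GFP plus EICD to GFP for each measured gene, by role. Orange points are members and blue points the other lists, thick black bars are list medians, the grey band is the interquartile range of all genes (-0.15 to 0.30), and dotted lines mark 1.5-fold. The PERK-ATF4 list (median 1.79) begins at 0.42, to the right of every member except Herpud1 and Atf6, while the chaperones and isomerases lie left of 0.

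By the arm to which genes are usually assigned, the 9 measured ATF6 targets had a median log2 ratio of -0.35, with 7 below 0, Herpud1 higher and Calr lower. The 9 measured XBP1 targets had a median of -0.12, with 7 below 0 and 0 past 1.5-fold. Of the 9 genes listed under the PERK-ATF4 arm, 8 were higher, with a median of 1.79. This list is named by usual assignment, and the activity of PERK or of any other kinase was not measured. Trib3, a pseudokinase induced by ATF4, went from 6.57 to 60.9 FPKM (3.21), and Ddit3, the transcription factor CHOP, from 12.5 to 43.1 FPKM (1.79). Atf4 itself went from 140 to 187 FPKM (0.42), which did not pass. Among all genes, 10.2% were higher in this comparison.

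The 8 measured members with an ERSE match were all below 0 with EICD, from -0.59 to -0.11, with a median of -0.37. Of the 20 other measured members with a promoter window, 12 were below 0 and the median was -0.09. Among the members with a match, Hsp90b1 (510 FPKM), Hspa5 (426), Calr (351), Canx (277) and Pdia6 (161) had high mean levels. Creld2 (37.5), Syvn1 (34.3) and Dnajc3 (16.1) had lower ones. Other genes at 100 to 300 FPKM and above also had medians below 0 (-0.16 and -0.24). The part of level in the difference between members with and without a match was not tested. Beyond the members, the ERSE was found in 4 measured genes, of which 1 was below 0 and 0 were higher, with a median of 0.39. The ERSE-II was found in 6 further measured genes, of which 0 were higher, and the UPRE in 87, of which 12 were higher (13.8%). The C/EBP-ATF element was found in 215, of which 48 were higher (22.3%), against 10.2% of all genes.

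Highly expressed genes as a whole had medians below 0 with EICD, and the medians of the members lay lower still at the same level. Between 100 and 300 FPKM the 619 other genes had a median log2 ratio of -0.16, and the 5 members of that range had a median of -0.37. At 300 FPKM or more the 220 other genes had a median of -0.24 and the 4 members had -0.46. All 9 of these members were below the median of the other genes in their range. Between 30 and 100 FPKM the medians were -0.02 for 2808 other genes and -0.21 for 10 members, with 7 of 10 members below. Between 10 and 30 FPKM they were 0.09 for 3634 other genes and 0.01 for 13 members, with 8 of 13 below. Level was matched here only by range, and the difference left between members and other genes was not tested.

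**Figure D3:**
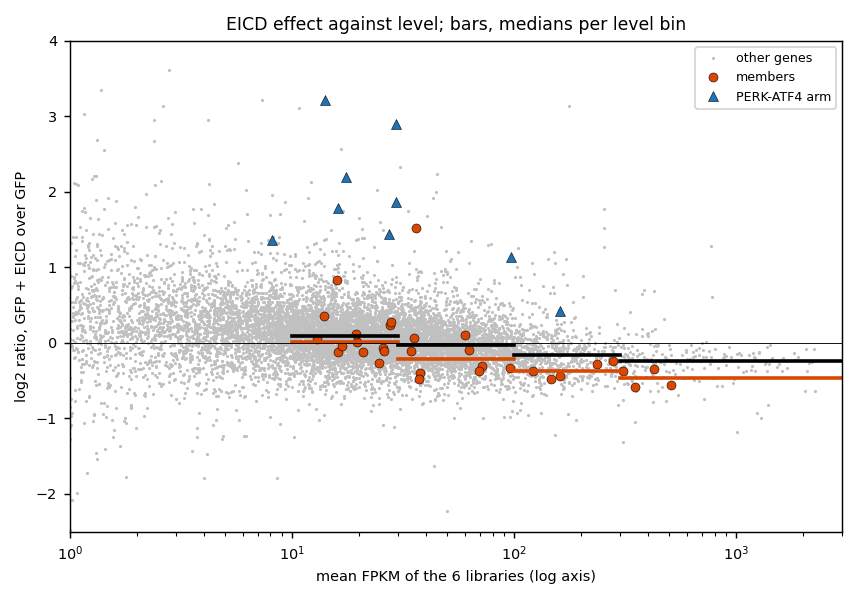
log2 ratio of GFP plus EICD to GFP against the mean FPKM of the 6 libraries (log axis). Grey points are other genes, orange points members and blue triangles the PERK-ATF4 list, and points beyond the axes are not drawn. Horizontal bars are the medians of the other genes (black) and of the members (orange) in 4 ranges of level, and in each range the orange bar lies below the black one.

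Translocation genes outside the member list were mostly below 0 as well. Of 23 further genes of translocation, glycosylation and export, 21 were below 0 and the median was -0.22. Over all genes 41.9% were below 0 and the median was 0.066. Dad1, a subunit of the oligosaccharyltransferase, fell by 0.75 on the log2 scale and Sec61g, a subunit of the channel, by 0.59, and 0 rose. Of 29 measured further genes of ER folding and ERAD, 2 rose, namely Sil1, the nucleotide exchange factor of BiP (1.06), and Ero1l, the ER oxidase (0.88). Fkbp11 (-1.24) and Fkbp14 (-0.73), prolyl isomerases of the ER, fell, and the median was -0.06. Of 6 further regulators of the response 0 passed 1.5-fold, with Wfs1 at 0.54. In the cytosol, 4 of 7 measured heat shock genes fell, led by the Hsp70 Hspa8 at -1.19, and the median was -0.61. Over all 10478 genes 10.2% rose and 2.54% fell. Many of the genes in these lists were highly expressed, and the part of level in their ratios was not tested.

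The comparison of GFP with untransfected SP2bKD cells includes transfection and sorting, but does not isolate them. The untransfected cells received DMSO after serum withdrawal, and neither step is stated for the sorted cells. This comparison shares the GFP library with the one above. No member passed 1.5-fold (0 higher and 0 lower of 32), against 7.87% of 10446 genes higher and 11.1% lower. At a minimum of 10 FPKM, 469 genes were higher and 500 lower instead of 822 and 1164. Below 0 were 29 of 32 members and 58.8% of all genes, with medians of -0.21 and -0.08. The untransfected library with DMSO was the highest of all libraries for 16 of 32 members. Values below 0 may therefore belong to that library and not to transfection or sorting, which was not tested.

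Herpud1 went from 22.7 to 34.1 FPKM, a log2 ratio of 0.5848 against the threshold of 0.5850, the highest of the members. Hspa5 (0.07) and P4hb (0.02) were the others above 0. At the low end stood Dnajc3, the PERK inhibitor p58IPK (-0.52), Ern1 (-0.49), Edem3 (-0.48) and Eif2ak3 (-0.46). All 9 measured XBP1 targets were below 0. In the PERK-ATF4 list Atf3 rose from 4.63 to 33.0 FPKM (2.83). Ppp1r15a, the regulatory subunit that returns eIF2 to its active state, rose from 12.5 to 30.8 FPKM (1.30). Ddit3 was at 11.8 and 12.5 FPKM. Of the 6 epithelial markers 2 rose, the newly assembled row of Krt5 (1.33) and Krt14 (1.10), and 2 fell, led by Krt8 (-1.12), with a median of -0.19. The parts of transfection, sorting, DMSO, serum withdrawal and culture in these values cannot be told apart.

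**Figure D4:**
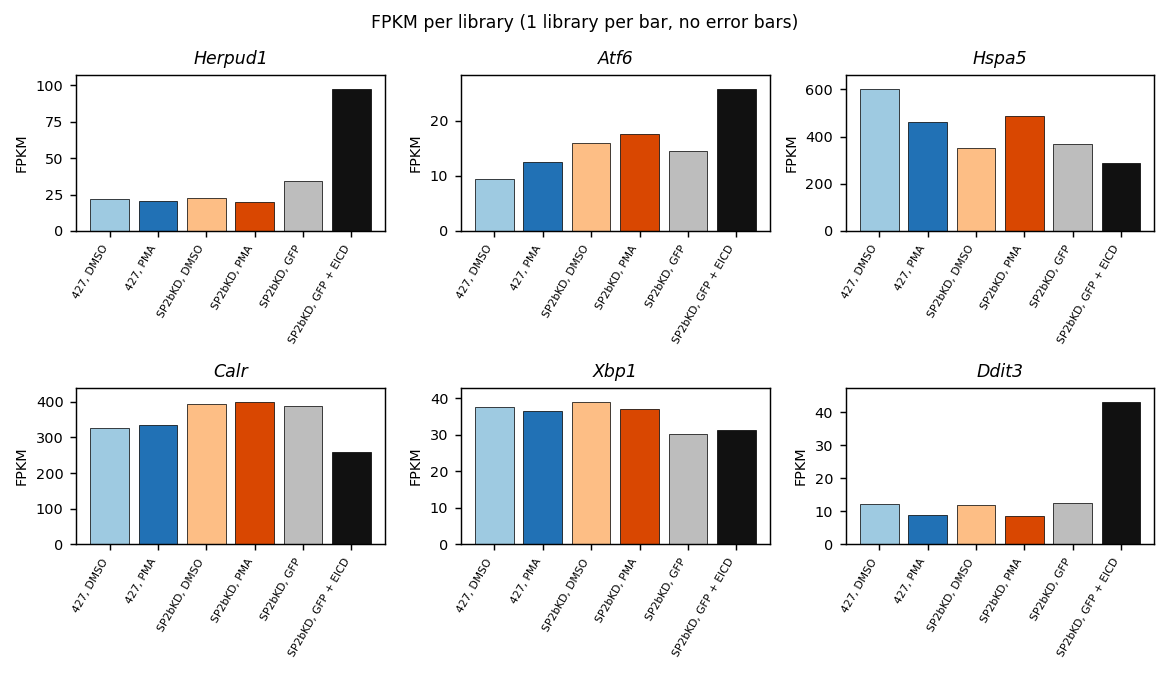
FPKM of 5 members and of Ddit3 in the 6 libraries, 1 library per bar and no error bars, each panel with its own axis from 0. Herpud1, Atf6 and Ddit3 are highest with GFP plus EICD (97.7, 25.8 and 43.1 FPKM), Hspa5 and Calr are lowest there (289 and 259 FPKM), and Xbp1 varies between 30.2 and 39.0 FPKM.

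The comparisons of PMA with DMSO ask what shedding conditions do in each line. The member genes stayed within 1.5-fold in both. In 427 cells 0 of 32 were higher and 0 lower, against 7.93% of 10410 genes higher and 14.2% lower. In SP2bKD cells 0 of 32 were higher and 0 lower, against 7.73% of 10382 genes higher and 16.1% lower. The medians were -0.12 over the members and -0.12 over all genes in 427 cells, and -0.17 and -0.15 in SP2bKD cells. At a minimum of 10 FPKM, 548 genes were higher and 589 lower in 427 cells, with a median of -0.07. In SP2bKD cells 569 were higher and 785 lower at that minimum, with a median of -0.11. With the libraries scaled to a common median ratio, the genes past 1.5-fold were 1011 higher and 1093 lower in 427 cells instead of 825 and 1476, and 1070 and 1162 in SP2bKD cells instead of 803 and 1676. Under that scaling 1 member, Hspa5, passed 1.5-fold in SP2bKD cells (0.59).

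In 427 cells the members ranged from -0.54 for Sel1l to 0.41 for Atf6. Sel1l went from 38.8 to 26.6 FPKM in 427 cells (-0.54) and was at -0.45 in SP2bKD cells. Edem1 was at -0.47 and Edem3 at -0.42 in 427 cells, and at -0.23 and -0.33 in SP2bKD cells. Of the 9 measured ERAD members, 8 were below 0 in 427 cells and 9 in SP2bKD cells, against 62.8% and 64.4% of all genes, with medians of -0.19 and -0.33. With median ratio scaling 6 of 9 and 8 of 9 were below 0, with medians of -0.09 and -0.21. In SP2bKD cells the lowest were Dnajb9 (-0.55) and Eif2ak3 (-0.51). The chaperones lay higher than the ERAD genes, at medians of 0.03 and 0.10. The translocon and export genes had medians of 0.08 in both lines, with Sec61a1 at 0.25 and 0.22.

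Hspa5 had opposite signs in the lines. It went from 603 to 462 FPKM with PMA in 427 cells (-0.39) and from 350 to 485 FPKM in SP2bKD cells (0.47). The 2 libraries with PMA were closer together than those with DMSO. Selk also had opposite signs, from 32.5 to 39.9 FPKM in 427 cells (0.29) and from 49.9 to 36.9 FPKM in SP2bKD cells (-0.43). These were the 2 of 4 members with opposite signs whose log2 ratios lay more than 1.5-fold apart, and none of the 4 ratios given for them passed 1.5-fold by itself. The difference rests on 4 libraries and was not tested.

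The 6 further regulators of the response were below 0 with PMA in both lines, with medians of -0.26 and -0.59, and with median ratio scaling 1 of 6 was above 0 in SP2bKD cells. In SP2bKD cells Atf6b, the paralog of Atf6 (-0.92), Creb3l2, an ER-anchored transcription factor (-0.83), and Wfs1 (-0.61) fell. In 427 cells Creb3l2 fell (-0.78). In the PERK-ATF4 list Atf3 rose in 427 cells (1.85) and Nupr1 fell in both lines (-0.78 and -1.71).

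**Figure D5:**
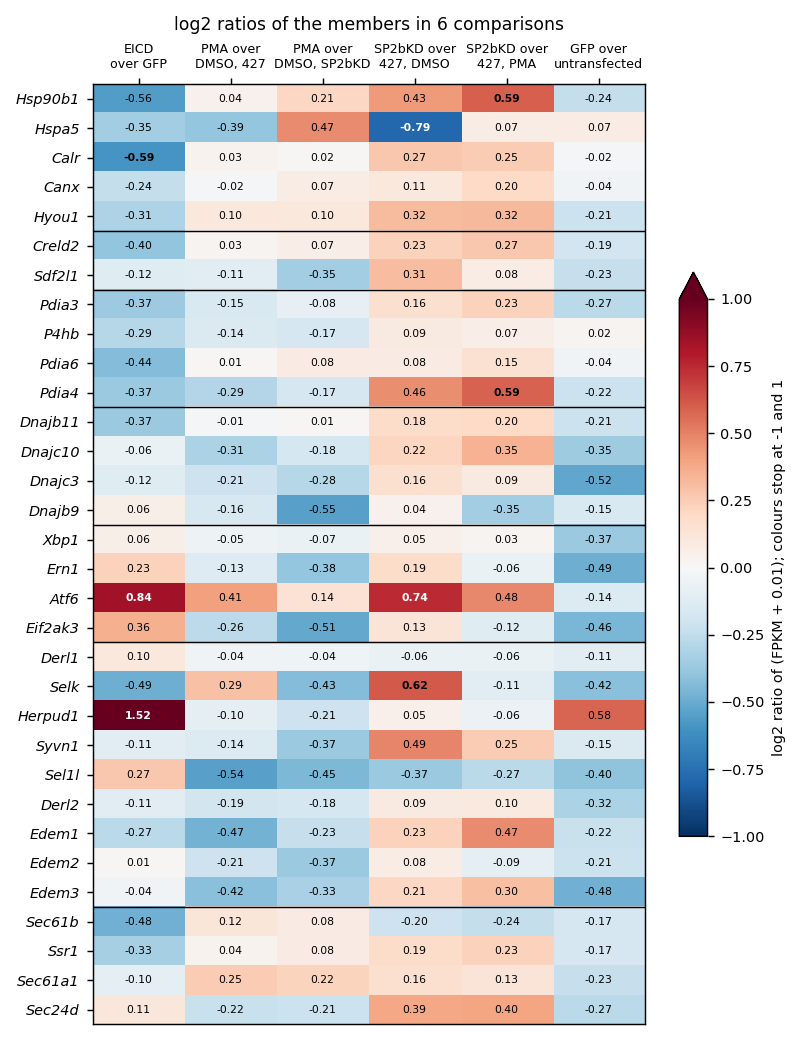
log2 ratios of the 32 measured members in the 6 comparisons, with roles separated by lines and values past 1.5-fold in bold. Red is higher and blue lower in the condition named first, the colours stop at -1 and 1, and Herpud1 with EICD (1.52) lies beyond that range. Columns that share a library are not independent.

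The comparison of SP2bKD with 427 cells concerns the lines as labelled. Most ER transcripts were above 0 in SP2bKD, and BiP was lower with DMSO but not with PMA. With DMSO, Atf6 and Selk were higher and Hspa5 was lower, 2 and 1 of 32, against 7.88% of 10452 genes higher and 6.01% lower. Above 0 were 28 of 32 members and 55.7% of all genes, with medians of 0.17 and 0.04. Sppl2b itself was at 0.44 in this comparison, above 0.

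Hspa5 was at 603 FPKM in 427 cells with DMSO and 350 FPKM in SP2bKD cells with DMSO, 1.72-fold lower (-0.79). Its partner Hsp90b1 was at 447 and 602 FPKM (0.43), Pdia4 at 112 and 154 FPKM (0.46) and Hyou1 at 65.2 and 81.4 FPKM (0.32). BiP thus departed from the other 4 chaperones, all of which were above 0. Within each library the ratio of Hspa5 to Hsp90b1 was 1.35 in 427 cells with DMSO, 1.00 with PMA, 0.582 in SP2bKD cells with DMSO, 0.700 with PMA, 0.720 with GFP and 0.833 with GFP plus EICD. This ratio does not depend on the scaling of the libraries, and both 427 libraries were above the 4 labelled SP2bKD.

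Atf6 went from 9.47 to 15.9 FPKM between the lines with DMSO (0.74) and Selk from 32.5 to 49.9 FPKM (0.62). Syvn1 was at 0.49 and overlaps Mrpl49 on the opposite strand. Sel1l, its partner, was the lowest ERAD member at -0.37. Xbp1 was at 0.05 and Herpud1 at 0.05. Of the further regulators Atf6b (0.71) and Creb3l2 (0.64) rose. Atf6b was at 81.9 FPKM in the SP2bKD library with DMSO and between 43.4 and 50.02 FPKM in the other 5.

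With PMA, Hsp90b1 and Pdia4 were higher in SP2bKD and 0 were lower, 2 and 0 of 32, against 5.91% of 10294 genes higher and 5.95% lower. Hsp90b1 was at 459 FPKM in 427 cells and 694 FPKM in SP2bKD cells (0.59), and Pdia4 at 91.3 and 137 FPKM (0.59). Both were just past 1.5-fold. Hspa5 was at 462 and 485 FPKM (0.07), and Atf6 was at 12.6 and 17.5 FPKM (0.48). Edem1 was the highest ERAD member at 0.47 and Dnajb9 the lowest of all members at -0.35. Above 0 were 23 of 32 members and 53.4% of all genes, with medians of 0.14 and 0.02. In this comparison all 5 chaperones and all 4 disulfide isomerases were above 0.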

How the data were processed

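The authors aligned paired-end reads of poly(A) RNA, assembled gene models on GRCm38 and deposited FPKM, 1 value for each locus in a library. The submitters' processing notes name TopHat2 2.1.1, Cufflinks 2.1.1, Cuffdiff 2.1.1 and STAR 2.4.0b, the role of the last not being stated. FPKM depend on the assembled gene models, so that merged or overlapping loci share fragments, and on the total of fragments in a library.

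From the deposited FPKM, log2 ratios were computed with 0.01 added to both values, using Python 3.11.15, NumPy 2.4.6, pandas 2.3.3 and matplotlib 3.10.9. Where a symbol repeated, the Ensembl row of highest mean was taken. No p-value was computed, because each condition has 1 library. Named were all members by role, those past 1.5-fold and at the ends of each role in a comparison, Sppl2b, Lsm7 and St14 as label checks, and of the other lists at most the 3 genes furthest from 0. Some others of those lists (Atf4, Ddit3, Ppp1r15a and Fkbp14) were named after their values were seen. The members and lists were chosen with earlier results of these data known. Depth was estimated from the smallest steps of FPKM in genes with a single transcript over 2500 bases. By this estimate each measured member had at least 570 fragments in each library, and counting error on the log2 ratio with EICD was 0.011 to 0.083, which covers counting error only and not the variation between cultures. The computation of ratios and counts was checked on simulated fragments with counting error only, which says nothing about variation between cultures. Alternatives were 1 FPKM added, a 2-fold call, a minimum of 10 FPKM or none, upper quartile and median ratio scaling, and summed rows of a symbol. Leaving out Ern1 was chosen after seeing the data. Sequences are from RefSeq (GRCm38.p6), and both strands were searched.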

Additional observations from a re-analysis of the deposited data

Results flagged for a closer look

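The effect of PMA on Hspa5 had opposite signs in the lines, -0.39 in 427 cells and 0.47 in the cells labelled SPPL2b knockdown, a difference of log2 ratios of 0.857. Selk differed the other way, 0.29 in 427 cells and -0.43 in the cells labelled SPPL2b knockdown, a difference of -0.729. Each value comes from 1 library per condition, and the difference itself was not tested. Both genes were at their extreme in a DMSO library, Hspa5 at 603 FPKM in 427 cells and Selk at 49.9 FPKM in SP2bKD cells.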

How the results depend on the processing

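No paired analysis was possible because each condition has 1 library, and no library could be left out. The amount added and the scalings recomputed 576 member ratios, of which 567 kept their side of the threshold, 4 no longer passed it, 5 newly passed it and 0 called ratios changed sign. Minima, summed rows and leaving out Ern1 could not change a measured ratio, because all 32 members reached 10 FPKM, no member symbol repeats and Ern1 passed in no comparison. At 2-fold, 1 member rose and 0 fell with EICD (Herpud1 remained), and between the lines 0 rose and 0 fell with DMSO and 0 rose with PMA. Under upper quartile scaling 2 members fell with EICD and 1 rose with GFP, and under median ratio scaling 2 fell with EICD, 1 rose with PMA in SP2bKD cells, 1 rose with GFP, and between the lines 1 rose with DMSO and 0 with PMA. The genes concerned lay beside the threshold: Hsp90b1 with EICD (-0.59 and -0.60), Herpud1 with GFP (0.60 and 0.66), Hspa5 with PMA in SP2bKD cells (0.59), and Selk (0.57), Hsp90b1 (0.57) and Pdia4 (0.56) between the lines. Median ratio scaling moved the median of all genes with PMA in SP2bKD cells from -0.15 to -0.03 and that of the members to -0.0496, and the distance between them was -0.02 in both. With GFP it gave 979 genes higher and 916 lower instead of 822 and 1164, and 26 members below 0 instead of 29. Between the lines with DMSO it left 25 members above 0 instead of 28, and with EICD 23 were below 0 instead of 22. With 1 FPKM added, 1 member instead of 2 rose between the lines with PMA (Pdia4 at 0.58), and with no minimum 1 rose with GFP (Derl3). The cause was not tested. Without replicates, no statement here extends beyond these 6 libraries.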
